A study of Homo sapiens
Mus musculus with 8 samples.

Results

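Jurkat-like cells, from 1 of the human T cell lines of this lymphocyte mixture, were described across 7 Chromium single-cell RNA-seq libraries. A barcode was counted as Jurkat-like when it held at least 3000 unique molecular identifiers (UMIs, each marking 1 captured RNA molecule), when over 80% of its UMIs were human, when under 10% came from mitochondrial genes, and when NKG7, CST7 and CD8A together made up under 0.02% of its human UMIs. Those 3 genes mark the other human line and, like the mitochondrial genes, were left out of the findings. The rule held for 7048 of 24515 barcodes with at least 3000 UMIs, namely 280 in 3′ v2, 1326 and 601 in 5′ v1, 1390 and 2978 in mixture F and 125 and 348 in mixture G. Every library was made from an unsorted mixture in equal parts of 4 cultured lines: Jurkat, TALL-104 (a human line of CD8 T cells), and the mouse lines EL4 (T cells) and IVA12 (B cells). The study grew each line in a medium of its own, with interleukin-2 for TALL-104. It describes TALL-104 as slow to grow, with viability under 80%. The part of these conditions in differences between the human lines was not tested. The libraries differed in kit, with 1 library of the 3′ v2 kit, 2 of the 5′ v1 kit and 4 of the 3′ v3 kit, and in the number of captured cells aimed at, from 2000 to 6000. The 4 libraries of 3′ v3 came from 2 cell mixtures that the study names F (replicates 1 and 3) and G (replicates 2 and 4), whereas the 3′ v2 and 5′ v1 libraries each came from a mixture of their own, A and B, so that kit and mixture cannot be told apart between kits. Within a pair of libraries of 1 mixture, values are given in the order of the replicate numbers. The other labelled library of 3′ v2, its replicate 1, is not analysed here.

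Jurkat is an established line from a T cell acute lymphoblastic leukemia (T-ALL), in which a developing thymocyte stops maturing and keeps dividing. In this class of T-ALL the transcription factor TAL1, silent in normal T cells, sits on DNA in a complex with GATA3, RUNX1, MYB, the E proteins TCF3 and TCF12, and the bridging proteins LDB1 and LMO1 or LMO2. The line is widely used to study T cell receptor signalling, in which the CD3 chains pass the signal to the kinases LCK and ZAP70 and on to the adaptors LAT and LCP2. Growth signals also run through the PI3K and AKT pathway, which is known to be active in Jurkat cells.

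Levels below are UMIs per 1000000 human UMIs (CPM), from counts summed over the Jurkat-like cells of a library. A UMI is counted at 1 end of a transcript, so that levels were not divided by gene length, and cells with more UMIs weigh more in a sum. The markers bore out the label in part. TAL1 was at 41.4 in 3′ v2, 46.9 and 55.1 in 5′ v1, 49.5 and 46.6 in mixture F and 89.4 and 86.5 in mixture G, and in 2357 TALL-104-like barcodes, chosen by high NKG7, CST7 and CD8A, its mean over the 7 libraries was 2.33. SOX4, a transcription factor of lymphoid progenitors, was at 1791 in 3′ v2, 661 and 666 in 5′ v1, 1022 and 1148 in mixture F and 1809.5 and 2028 in mixture G, against a mean of 75.8 in TALL-104-like cells. CD3D and CD3G, chains of the receptor complex, were at 762 to 1681 and 326 to 581, but TALL-104-like cells had means of 979 and 491. TAL1 and SOX4 thus separated the human lines, whereas both CD3 genes marked T cells of either line. Since the rule itself divides the human barcodes into these lines, all values beside TALL-104-like cells are a description without a test, and those cells were also shallow, with 91168 to 2242759 human UMIs in all per library, so that 1 UMI stood for 0.446 to 11.0 CPM. Both human lines are cultured T cell lines, so that the contrast does not set leukemia against normal T cells.

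The libraries were not of equal depth or quality. The median number of UMIs per Jurkat-like cell was 13008 in 3′ v2, 19012 and 18981 in 5′ v1, 18290.5 and 18032 in mixture F and 11223 and 10320.5 in mixture G. The median mitochondrial share, in percent, was 2.99 in 3′ v2, 4.77 and 5.69 in 5′ v1, 6.29 and 4.74 in mixture F and 8.84 and 8.55 in mixture G. The libraries of mixture G had the fewest UMIs per cell and the highest mitochondrial share. The limit on the mitochondrial share kept 202 of 372 and 525 of 1057 human barcodes in mixture G, but 1603 of 1651 and 3447 of 3458 in mixture F. The median share of mouse UMIs in Jurkat-like cells ran from 0.315% to 3.64%. Of the cells, 83 held over 3 times the median UMIs of their library, and droplets with a pair of Jurkat cells were not removed. No pair of libraries shared more than 1 barcode of a Jurkat-like cell. A gene at 0 in a library could still be at up to 0.0508 to 2.06 CPM there, the level of 3 UMIs, a limit that covers counting error only. CD1E was at 396 inside and 403 outside the mitochondrial limit, while RNA of cytotoxic cells differed more across the limits. CCL5 was at 657 CPM in barcodes with 2000 to 3000 UMIs and at 56.0 in those with 3000 to 4000. KLRB1 was at 6.83 inside and 0.614 outside the mitochondrial limit, and CCL5 at 9.44 inside and 20.4 outside the limit on NKG7, CST7 and CD8A.

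Most transcription factors that mark T-ALL were detected. Of 31 listed factors, 19 had a mean of at least 10 CPM and 7 were under 2 in every library. Of those at 10 or more in either human line, 12 of 21 were at least 2-fold above the TALL-104-like mean and 2 of 21 at least 2-fold below, where 20.9% and 17.2% of 9370 genes were. The partners of TAL1 were present. RUNX1 was at 127 in 3′ v2, 197 and 226 in 5′ v1, 134 and 146 in mixture F and 328 and 326 in mixture G, with a TALL-104-like mean of 30.7. MYB was at 143 in 3′ v2, 183 and 201 in 5′ v1, 149 and 166 in mixture F and 142 and 159 in mixture G, against 4.30 in TALL-104-like cells. RUNX1 was highest in mixture G, whereas MYB was highest in 5′ v1 and overlapped between the mixtures of 3′ v3. GATA3 was at 54.1 to 138, TCF12 at 51.1 to 169.8, TCF3 at 50.3 to 122 and LDB1 at 11.2 to 48.8. GATA3 and LDB1 were close to the TALL-104-like means of 68.9 and 26.5. The LMO partners differed. LMO1 was low, at 5.59 in 3′ v2, 6.16 and 7.02 in 5′ v1, 5.50 and 5.26 in mixture F and 9.63 and 4.39 in mixture G, while LMO2 was at 0 in 4 libraries and at most 0.775 CPM, against 51.6 in TALL-104-like cells.

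Factors of early T cell development were high. LEF1 was at 179 in 3′ v2, 453 and 429 in 5′ v1, 291 and 273 in mixture F and 451 and 508 in mixture G, and TCF7 at 235 in 3′ v2, 177 and 206 in 5′ v1, 229 and 232 in mixture F and 441 and 467 in mixture G. Both act downstream of WNT in thymocytes, and both were above TALL-104-like cells, with means of 46.2 and 125, in all 7 libraries. The inhibitors of E proteins were split. ID3 was at 142 in 3′ v2, 256 and 243 in 5′ v1, 328 and 300.2 in mixture F and 150.0 and 135 in mixture G, and ID1 at 21.6 to 121, but ID2, at 1.78 to 11.9, was far below the 331 of TALL-104-like cells. MYC, which drives cell growth, was at 159.6 in 3′ v2, 359.8 and 350.4 in 5′ v1, 282 and 245 in mixture F and 114 and 100.2 in mixture G. It was lowest in mixture G, and the groups of libraries did not overlap. IKZF1 (75.5 to 200.4), BCL11B (67.9 to 227), ETS1 (64.3 to 207), IKZF2 (23.4 to 206), TOX (41.7 to 106) and ETV6 (20.9 to 72.6), regulators of lymphoid identity, and MYCN (1.52 to 11.7) completed the detected factors. LMO2, HHEX, TLX1, TLX3, NKX2-1, HOXA9 and MEF2C were under 2 in every library, and LYL1, the close relative of TAL1, was at 0.727 to 2.32.

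**Figure D1:**
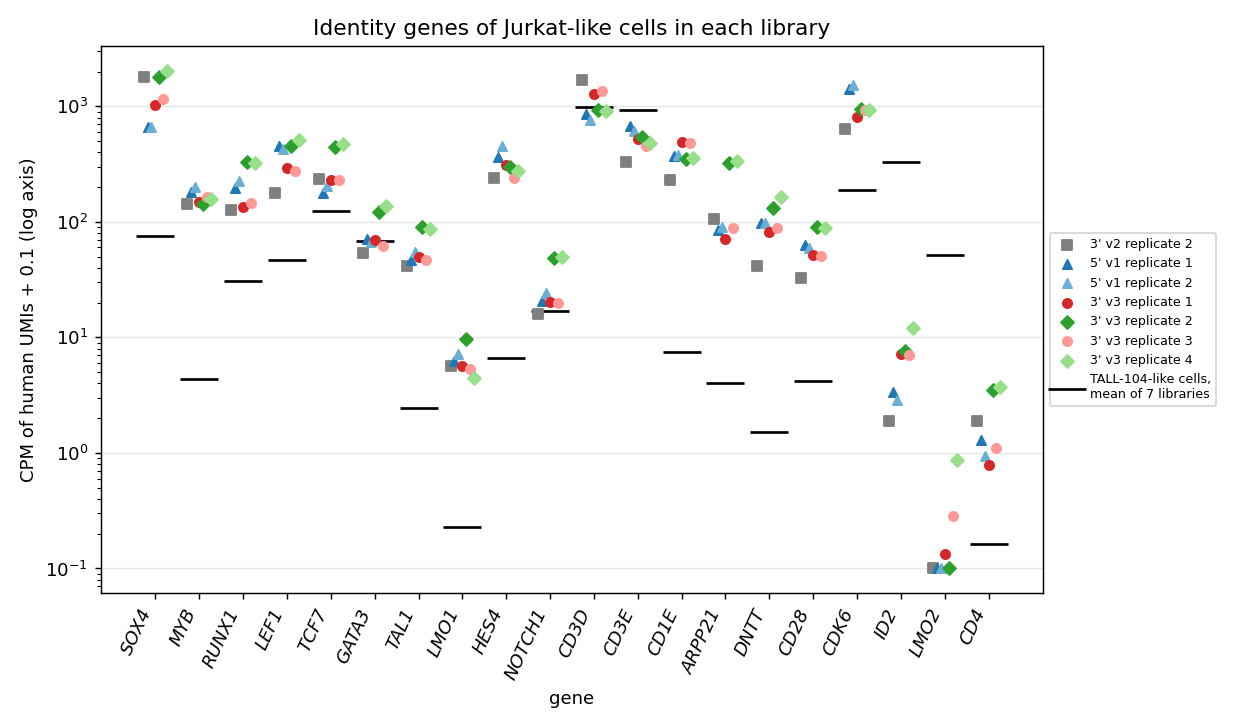
Level of identity genes in Jurkat-like cells, in CPM of human UMIs plus 0.1 on a log axis. Each symbol is 1 library (grey squares, 3′ v2, blue triangles, 5′ v1, red circles, mixture F and green diamonds, mixture G of 3′ v3), and black bars are means of TALL-104-like cells over 7 libraries. TAL1, MYB, CD1E and DNTT lie far above the bars in every library, ID2 and LMO2 far below, and CD3D lies around its bar.

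NOTCH signalling, which commits progenitors to the T lineage and is often mutated in T-ALL, was represented by receptors, cleavage enzymes and targets. Among receptors, NOTCH1 was at 15.8 in 3′ v2, 20.6 and 24.1 in 5′ v1, 20.2 and 19.7 in mixture F and 48.8 and 49.8 in mixture G, NOTCH3 at 6.41 to 18.6 and NOTCH2 at 3.81 to 25.1. NOTCH3 was at 0.0637 and NOTCH2 at 44.2 in TALL-104-like cells, so that these receptors lay on opposite sides. Of the targets, HES4 stood out. It was at 241 in 3′ v2, 362 and 454 in 5′ v1, 312 and 241 in mixture F and 300.0 and 273 in mixture G, against 6.47 in TALL-104-like cells. DTX1 was at 16.8 in 3′ v2, 12.2 and 14.9 in 5′ v1, 42.8 and 34.6 in mixture F and 45.4 and 36.4 in mixture G, against 0.874, while HES1 (4.82 to 22.6) and PTCRA, the surrogate receptor chain of immature thymocytes (4.32 to 10.6), were low, and HEY1 and NRARP were under 2 in every library. The nuclear partner RBPJ (49.8 to 125), its coactivator MAML1 (12.7 to 29.6), the proteases ADAM10 (23.1 to 74.9) and NCSTN (13.5 to 28.4), and the ubiquitin ligase FBXW7 (28.2 to 66.6) were detected. In all, 4 of 12 genes were at least 2-fold over and 3 of 12 at least 2-fold under TALL-104-like cells, where 20.9% and 17.2% of 9370 genes were. The median fold of the list was 1.07, where it was 1.10 over all genes compared.

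Genes of the receptor complex were present in every library. CD3E was at 331 in 3′ v2, 674 and 614 in 5′ v1, 524 and 457 in mixture F and 539 and 478 in mixture G, against 925 in TALL-104-like cells, and CD247, the zeta chain, at 66.8 in 3′ v2, 86.3 and 76.2 in 5′ v1, 123 and 118 in mixture F and 92.2 and 79.5 in mixture G, against 147. Both were below the TALL-104-like level in all 7 libraries. None of the 4 CD3 and zeta genes differed 2-fold from the TALL-104-like mean. Genes of the receptor chains themselves were not used here. LCK, the kinase that phosphorylates the CD3 chains, was the steadiest of the signalling genes named, at 389.6 in 3′ v2, 389 and 366 in 5′ v1, 396 and 408 in mixture F and 409 and 408 in mixture G. ZAP70, the kinase recruited to them, was at 79.5 in 3′ v2, 195 and 195 in 5′ v1, 124 and 123 in mixture F and 127 and 138 in mixture G, and the adaptor LAT at 156 in 3′ v2, 244 and 254 in 5′ v1, 188 and 184 in mixture F and 182 and 189.8 in mixture G. SH2D1A (170.0 to 228), GRB2 (132 to 234) and CSK (68.1 to 125), 2 adaptors and the kinase that restrains LCK, followed. Of 32 signalling genes, 0 were at least 2-fold above TALL-104-like cells and 11 at least 2-fold below, among them LCP2 (53.9 against 224), RASGRP1 (48.7 against 207), CBLB (7.35 against 81.9) and TXK (3.16 against 91.3), as means of 7 libraries. The median fold over the 32 genes was 0.721, where it was 1.10 over all genes compared. Of all 9370 genes compared, 20.9% were at least 2-fold above and 17.2% at least 2-fold below.

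In the PI3K pathway, 2 phosphatases that oppose PI3K were low. INPP5D was at 4.83 to 21.3 against 68.0, and INPP4B at 0 to 0.688 against 87.8. The catalytic subunits PIK3CA (8.64 to 44.9), PIK3CD (2.80 to 11.6) and PIK3CG (2.54 to 10.1) and the regulatory PIK3R1 (39.1 to 114) and PIK3R2 (0 to 3.36) were followed by the kinases AKT1 (19.1 to 75.1), AKT2 (36.6 to 73.1) and PDPK1 (20.3 to 38.5). PDK1 (4.32 to 45.7), a mitochondrial kinase of pyruvate dehydrogenase that is no part of the pathway, stands in the list and its counts. Of the mTOR branch, MTOR was at 17.3 to 48.8, RICTOR at 14.0 to 51.6, RPTOR at 6.61 to 23.8, RHEB at 105 to 219, TSC1 at 9.66 to 29.6 and TSC2 at 10.9 to 36.9. PIK3IP1, an inhibitor of PI3K that quiescent T cells carry, was at 0.254 to 4.13 against 49.6 in TALL-104-like cells. Of the transcription factors that AKT keeps out of the nucleus, FOXO1 was low, at 0.254 to 2.84. FOXO3 was at 10.7 to 37.4, with a mean of 21.5 against 37.0 in TALL-104-like cells. Of 20 genes compared, 0 were at least 2-fold over and 7 at least 2-fold under TALL-104-like cells, where 20.9% and 17.2% of all genes were.

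Of 28 surface and thymocyte genes compared, 10 were at least 2-fold over and 13 at least 2-fold under TALL-104-like cells, where 20.9% and 17.2% of all genes were. Their median fold was 0.622. CD1E, a lipid-presenting molecule of cortical thymocytes, was at 230.5 in 3′ v2, 374 and 382 in 5′ v1, 491 and 483 in mixture F and 353 and 356 in mixture G, against 7.33 in TALL-104-like cells. CD1A (44.0 to 99.4), CD1B (30.0 to 45.5), CD1C (19.8 to 36.0) and CD1D (21.4 to 43.4) were all above TALL-104-like means of 0.317 to 2.46. DNTT, the enzyme that adds bases at receptor gene joints, was at 41.4 in 3′ v2, 97.9 and 98.1 in 5′ v1, 82.1 and 87.7 in mixture F and 131 and 164 in mixture G, against 1.41. RAG1 (0.254 to 2.93) and RAG2 (2.75 to 9.28), which cut receptor genes for joining, were low. ARPP21 was at 106 in 3′ v2, 84.8 and 90.0 in 5′ v1, 71.5 and 88.5 in mixture F and 323 and 334 in mixture G, with both libraries of mixture G far above the other 5. CD99 (346 to 1265), PTPRC, the common leukocyte antigen (110.3 to 462), CD47 (181 to 379), CD7 (151 to 304) and IL2RG (124 to 198) were the other leading genes. Costimulatory CD28 was at 32.3 to 89.4, against 4.06. CD4 was at 1.78 in 3′ v2, 1.19 and 0.836 in 5′ v1, 0.692 and 0.998 in mixture F and 3.44 and 3.62 in mixture G, low in every library although Jurkat is known as a CD4 line. CTLA4, PDCD1, CD44, CD34, CCR9, IL2RA and IL2RB were under 2 in every library, and CD44 was at 288 and IL2RB at 167 in TALL-104-like cells.

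Outside the lists, the genes with the largest ratio of Jurkat-like to TALL-104-like levels, among those with a mean of at least 100 CPM, were PMEPA1, SIX6, IGLL1, MYO7B and HHIP-AS1, an antisense RNA at 65.8 to 133. PMEPA1, which restrains TGF-beta signalling, was at 79.0 in 3′ v2, 64.0 and 75.5 in 5′ v1, 143 and 143 in mixture F and 127 and 134 in mixture G. SIX6, a homeobox factor of the eye, was at 133 in 3′ v2, 221 and 199 in 5′ v1, 159 and 157 in mixture F and 97.0 and 104 in mixture G, and IGLL1, the surrogate light chain of B cell precursors, at 139 in 3′ v2, 227 and 229.9 in 5′ v1, 153 and 145 in mixture F and 106 and 93.0 in mixture G. MYO7B, an unconventional myosin, was at 153 in 3′ v2, 468 and 523 in 5′ v1, 297 and 236 in mixture F and 651 and 567 in mixture G. TALL-104-like means of these genes were 1.22, 1.83, 2.29 and 8.08. They followed from the line that the rule selects and are a description.

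Genes of cytotoxic cells, the markers of the other human line, were mostly near 0. Of 27 listed beside NKG7, CST7 and CD8A, 16 were under 2 CPM in every library, among them GNLY, GZMB, GZMH, KLRC1, IFNG and KLRK1, and IFNG and KLRK1 were at 0 in all 7. The summed level of the list ran from 277 to 527 CPM, against 10940.2 to 19506 in TALL-104-like cells, and IL32, a cytokine gene, made up more than any other. IL32 was at 251 in 3′ v2, 259 and 232 in 5′ v1, 268 and 259 in mixture F and 375 and 409.6 in mixture G, against 6659. GZMA (13.7 to 51.9), CTSW (13.1 to 51.4) and GZMM (2.84 to 14.7) came next. CD8B, at 2.54 to 10.3, went the other way, with a mean of 5.95 against 1.40 in TALL-104-like cells. KLRB1 was at 0.762 in 3′ v2, 0 and 0 in 5′ v1, 1.73 and 2.44 in mixture F and 8.26 and 12.4 in mixture G, highest in mixture G, against a TALL-104-like mean of 1532. How much of this was free RNA in the droplets was not tested.

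Immediate early genes, which T cell activation switches on, were mostly below the other human line. JUND was at 22.6 in 3′ v2, 9.80 and 11.6 in 5′ v1, 150.2 and 126 in mixture F and 118 and 133 in mixture G, IER2 at 37.9 to 79.1, DUSP2 at 19.6 to 76.1, KLF2 at 7.19 to 67.3, JUNB at 15.2 to 44.9 and NFKBIA at 11.7 to 32.6. FOS, FOSB, FOSL1, NR4A2, NR4A3 and EGR2 were under 2 in every library. Of 19 genes compared, 3 were at least 2-fold over and 14 at least 2-fold below TALL-104-like cells, where 20.9% and 17.2% of all genes were. MHC class I transcripts were low as well. B2M, its invariant chain, was at 846 in 3′ v2, 1345 and 1147 in 5′ v1, 1685 and 1541 in mixture F and 1252 and 1213 in mixture G, against 9622, and HLA-B and HLA-C had means of 131 and 228 against 1586 and 885. Class II genes were at or near 0, with HLA-DRA at 0 to 0.0169 and CIITA, their regulator, at no more than 0.186. Interferon-stimulated genes were led by LY6E (98.1 to 309), ISG15 (124 to 251), IRF1 (71.4 to 114), BST2 (38.1 to 88.5), IFI6 (31.3 to 58.0) and XAF1 (29.6 to 79.1), and of 19 compared 1 was at least 2-fold over and 14 at least 2-fold below TALL-104-like cells.

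Of the lists of cell cycle genes, 31 of 40 S phase genes and 41 of 53 G2/M genes were at least 2-fold above TALL-104-like cells. Over all genes compared, 20.9% were at least 2-fold above and 17.2% at least 2-fold below. CDK6, the cyclin-dependent kinase that opens the cell cycle, was at 642 in 3′ v2, 1402 and 1529 in 5′ v1, 804 and 925 in mixture F and 939.8 and 932 in mixture G, against 189 in TALL-104-like cells, and CDK4 at 109 to 329. Of the D cyclins, CCND3 was at 115 in 3′ v2, 268 and 285 in 5′ v1, 169 and 169 in mixture F and 153 and 172 in mixture G, whereas CCND1 and CCND2 stayed under 10 CPM. The inhibitors were split. CDKN2A and CDKN2B, which block CDK4 and CDK6, were at 0 in every library, as they were in TALL-104-like cells, and CDKN1A, an inhibitor of several CDKs, was at 0.254 in 3′ v2, 1.88 and 1.92 in 5′ v1, 0.485 and 0.66 in mixture F and 1.38 and 2.32 in mixture G, against 58.9. CDKN2D (58.7 to 115), CDKN2C (34.8 to 60.6) and CDKN1B (19.6 to 84.2) were present, as were RB1 (129 to 261) and E2F3 (38.9 to 67.4). Among genes of apoptosis and DNA damage, BID (170.2 to 306), BAX (70.2 to 139.6), MDM2 (33.3 to 83.6), PMAIP1 (43.5 to 65.9), BCL2L1 (23.4 to 72.9) and MCL1 (21.1 to 47.8) led, and 12 of 24 were at least 2-fold below TALL-104-like cells.

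Of 31 genes of nucleotide synthesis compared, 22 were at least 2-fold over and 0 at least 2-fold under TALL-104-like cells, where 20.9% and 17.2% of all genes were. TYMS, which makes thymidylate, was at 478 in 3′ v2, 1047 and 970.2 in 5′ v1, 961 and 946 in mixture F and 654 and 631 in mixture G, and ADA, which clears deoxyadenosine, at 1131 in 3′ v2, 707 and 657 in 5′ v1, 755 and 716 in mixture F and 641 and 609 in mixture G, against 120.2 and 71.0. DUT (301 to 589), PAICS (198 to 373), NME1 (99.4 to 524) and MTHFD2 (109 to 359.8) followed. Ribosome biogenesis had 14 of 31 genes at least 2-fold over and none 2-fold under. Its leading genes were NPM1 (1045 to 2118), NCL (1031 to 1537), PA2G4 (232 to 1228), NHP2 (223 to 624), NOP10 (160.1 to 524) and FBL (206 to 298). Of the chaperones, HSP90AA1 was at 1408 in 3′ v2, 1163 and 1001 in 5′ v1, 3232 and 2981 in mixture F and 842 and 859 in mixture G. HSP90AB1 (713 to 2475), HSPD1 (716 to 1766), HSPE1 (269 to 1682), HSPA8 (383 to 1487) and TCP1 (326 to 686) followed, while the stress-inducible HSPA1A was under 2 in every library. HSPA1A and HSPA1B are near-identical copies, and how reads were divided between them, or among histone and HLA genes, is uncertain.

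In glycolysis, GAPDH was at 3096 in 3′ v2, 6718 and 5359 in 5′ v1, 6164 and 5757 in mixture F and 3064 and 3049 in mixture G. LDHB (642 to 2006) was above LDHA (400.5 to 1129) in 7 of 7 libraries, and ENO1 (369.7 to 1027), ALDOA (513 to 967) and TPI1 (393 to 897) followed, whereas the glucose transporter SLC2A3 was at 6.99 against 135 in TALL-104-like cells. Cholesterol synthesis was led by FDPS (187 to 600.3), FDFT1 (173 to 385), INSIG1 (108 to 416), ACAT2 (127 to 263), SQLE (131 to 189) and EBP (94.3 to 155). Outside ribosomal protein and mitochondrial genes, the 15 most abundant genes were MALAT1, EEF1A1, PTMA, GAPDH, TMSB4X, ACTB, TPT1, FTH1, YBX1, GNB2L1, PFN1, TUBA1B, HIST1H4C, H3F3A and HMGB1. The nuclear RNA MALAT1 was at 10248 in 3′ v2, 3201 and 3465 in 5′ v1, 4938 and 5981 in mixture F and 14512 and 16491 in mixture G, with both libraries of mixture G above both of mixture F. Ribosomal protein genes took 35.6% of human UMIs in 3′ v2 and 22.1% to 24.8% in the other libraries.

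Within the 3′ v3 kit, the 2 mixtures gave different profiles. Of 8442 genes with a mean of at least 10 CPM in 3′ v3, 17.2% were at least 1.5-fold higher in mixture F, with no overlap between the libraries, and 32.8% in mixture G. With 2 libraries a side, these counts are given without a test. The chaperone list was on the side of mixture F, with 17 of 20 genes higher there and 1 in mixture G. HSPE1 was at 1434 and 1260.4 in mixture F against 321 and 269 in mixture G, and HSP90AA1 at 3232 and 2981 in mixture F against 842 and 859 in mixture G. Ribosome biogenesis had 20 of 30 genes on the same side, such as NPM1, at 2118 and 2114 in mixture F against 1286 and 1205 in mixture G. The T-ALL factors, by contrast, had 13 of 19 genes higher in mixture G and 3 in mixture F, and the 3 exceptions were MYC, ID1 and ID3. ID1 was at 121 and 105 in mixture F against 25.5 and 30.0 in mixture G. NOTCH genes (7 of 11), PI3K genes (12 of 15), T cell receptor signalling genes (14 of 29) and histones (11 of 20) also lay towards mixture G. The median ratio of mixture G to mixture F was 0.486 for chaperones, 1.83 for T-ALL factors and 1.15 over all genes. The mitochondrial share, MALAT1 and the number of cells differed between the mixtures in the same libraries, as given above, and their part in these differences was not tested. With the mitochondrial limit at 20%, which took in 266 and 798 cells of mixture G, the counts of chaperones higher in mixture F and of T-ALL factors higher in mixture G were 18 and 14.

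**Figure D2:**
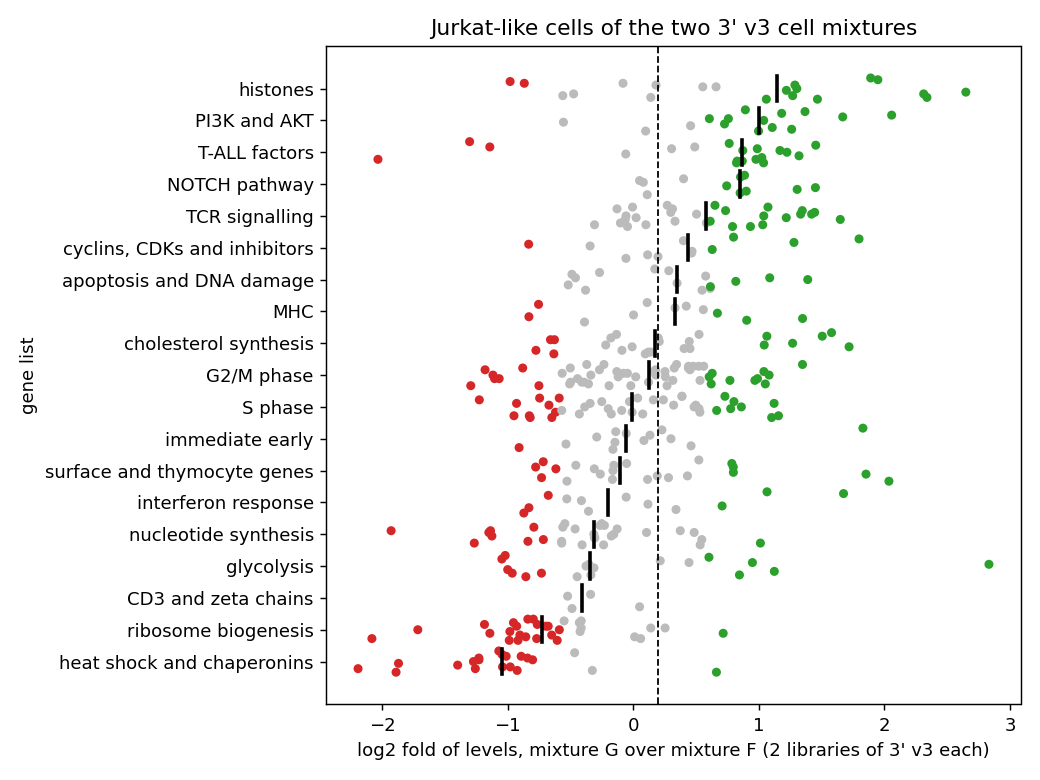
Log2 ratio of levels in Jurkat-like cells between the cell mixtures of the 3′ v3 kit, for list genes with a mean of at least 10 CPM. Points are genes, red where at least 1.5-fold higher in mixture F and green in mixture G without overlap of libraries, black bars are list medians and the dashed line is the median of all genes. Chaperones and ribosome biogenesis lie to the left, histones, PI3K genes and T-ALL factors to the right.

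The comparison of kits asked which genes of this program depend on how a library was made. Between 4 libraries of 3′ v3 and 2 of 5′ v1, edgeR's quasi-likelihood test at an adjusted p under 0.05 called 7.54% of 13926 genes higher in 3′ v3 and 7.72% lower. On simulated counts this test recovered 1.56% of genes changed 2-fold, so that a gene that did not pass may still differ between kits. Of 25 T-ALL factors tested, 4 were higher in 3′ v3, namely SOX4, TCF3, ETV6 and ID2, and none was lower (1 at an unadjusted p under 0.05, 1 in DESeq2). ID2 was far higher in TALL-104-like cells, as given above, and the part of their RNA in its call was not tested. SOX4 was at 661 and 666 in 5′ v1 and 1022, 1809.5, 1148 and 2028 in 3′ v3 (log2 fold change 1.08 ± 0.26 SE, adjusted p = 0.032). TAL1, MYB, RUNX1 and GATA3 did not pass, with log2 fold changes of 0.31, -0.35, 0.02 and 0.39. Of 15 NOTCH genes, DTX1, RBPJ and NCSTN were higher and NOTCH2 and ADAM10 lower in 3′ v3. DTX1 was at 12.2 and 14.9 in 5′ v1 and 42.8, 45.4, 34.6 and 36.4 in 3′ v3 (log2 fold change 1.52 ± 0.24 SE, adjusted p = 0.008). Of 32 signalling genes, 1 passed, VAV1, an exchange factor below the receptor that was higher in 3′ v3, and none of 4 CD3 and zeta genes was called by edgeR (0 at an unadjusted p under 0.05, 0 in DESeq2). Of the PI3K genes, AKT1 was higher and RPTOR lower.

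Over all genes tested between the kits, 7.54% were called higher in 3′ v3 and 7.72% lower. Among surface genes, CD2, PTPRC and CXCR4 were higher in 3′ v3, and CD99, RAG1 and RAG2 lower. CD99 was at 1251 and 1265 in 5′ v1 and 579.9, 386, 541 and 346 in 3′ v3 (log2 fold change -1.44 ± 0.37 SE, adjusted p = 0.0386). Growth lists held few calls, with 0 of 31 nucleotide genes, 0 of 22 glycolysis genes and 0 of 20 chaperones past the threshold in edgeR, although 5, 8 and 2 had an unadjusted p under 0.05, and DESeq2 called 3, 4 and 2. BOP1, a ribosome biogenesis factor, was lower in 3′ v3, at 99.5 and 77.5 in 5′ v1 and 0.346, 0.688, 0.744 and 1.29 in 3′ v3 (log2 fold change -7.02 ± 0.34 SE, adjusted p = 3.1e-04). Among genes at 50 CPM or more in the higher kit whose groups did not overlap, it headed those lower in 3′ v3, followed by LIME1, PAGR1, ATP6V0C, RP11-290D2.6, NGRN, PDF and GABARAP. LIME1, an adaptor of lymphocyte receptors, was at 80.8 and 96.0 in 5′ v1 and 0.381, 1.38, 1.08 and 0.258 in 3′ v3. BOP1 and LIME1 were thus near 0 in 3′ v3, so that their counts came mainly from 5′ v1 and the size of their fold changes is uncertain. Under the same limits, the genes with the largest change upward were TWF2, METRN, MRPL12, PMF1, JUND, HIST1H2AJ, PSMA2 and HIST1H2AM, and JUND was at 9.80 and 11.6 in 5′ v1 and 150.2, 118, 126 and 133 in 3′ v3 (log2 fold change 3.60 ± 0.32 SE, adjusted p = 0.002). The immediate early gene KLF2 was also higher and EGR1 and ZFP36 lower. BOP1, LIME1 and JUND in the 3′ v2 library, at 0.254, 0.254 and 22.6, were nearer to 3′ v3 for the first 2 and to 5′ v1 for JUND.

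MHC genes had 5 of 15 members higher in 3′ v3, where 7.54% of all genes tested were. HLA-B was at 77.1 and 58.0 in 5′ v1 and 126, 208, 126 and 264 in 3′ v3 (edgeR, log2 fold change 1.31 ± 0.30 SE, adjusted p = 0.0283). The interferon list had MX2 higher and IFITM3 lower. Of the cytotoxic genes, PRF1, GZMM and EOMES were higher in 3′ v3, with GZMM at 2.87 and 2.84 in 5′ v1 and 7.27, 14.4, 8.49 and 14.7 in 3′ v3 (log2 fold change 1.81 ± 0.25 SE, adjusted p = 0.006). Of 61 list genes that edgeR called, 12 were under 1 CPM in both 5′ v1 libraries, cytotoxic genes among them, so that their counts came mainly from 3′ v3, and they are not named as calls here. The summed level of the 27 cytotoxic genes was 305 and 277 CPM in 5′ v1 and 408, 480.2, 387 and 527 in 3′ v3. TALL-104-like barcodes numbered 69 and 29 in 5′ v1 and 567, 164, 1099 and 388 in 3′ v3, and the part of their RNA in these calls was not tested. The remaining calls, apart from those genes, were FDPS, XPC, GADD45A, E2F1, CCND2, NASP, GTSE1, TOP2A, H1FX, HIST1H4C and HIST1H2AM higher and BCL2L1, USP1, EXO1, HIST1H2BJ and H2AFX lower. The kit test leaned on both 5′ v1 libraries: without replicate 1 of 5′ v1 it called 23 genes higher and 61 lower, and without replicate 2 it called 63 and 105. Against mixture F alone it called 4107 and 4075, and against mixture G alone 4041 and 4179. The test on all 4 libraries of 3′ v3 had no term for mixture, so that its spread included the difference between F and G.

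**Figure D3:**
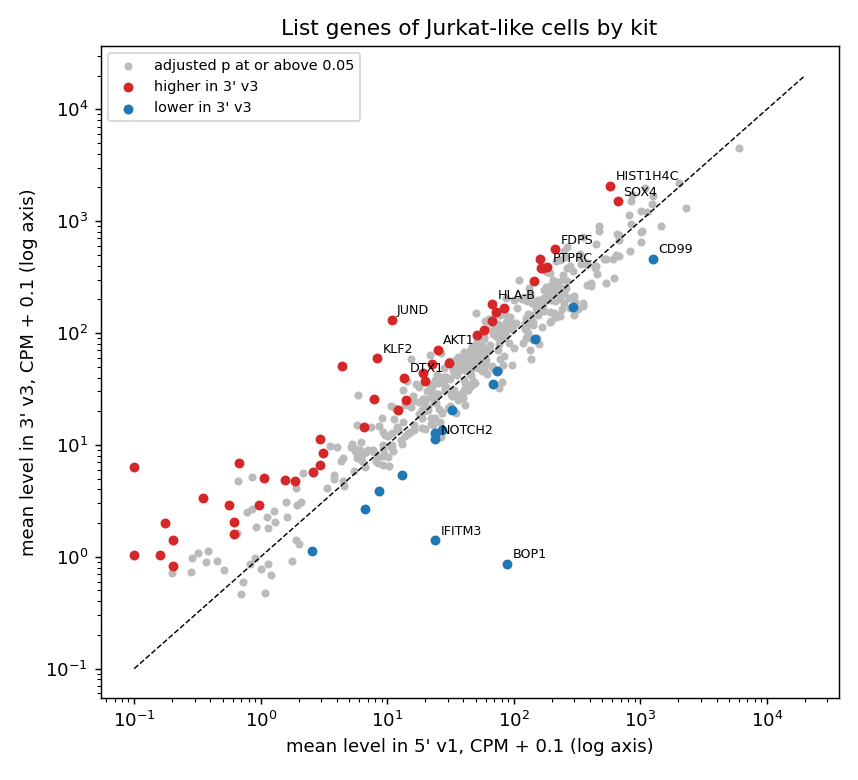
Mean level of list genes in Jurkat-like cells of 2 libraries of 5′ v1 (x axis) and 4 of 3′ v3 (y axis), in CPM of human UMIs plus 0.1 on log axes. Points are genes, red or blue where the edgeR test called them higher or lower in 3′ v3, and the dashed line marks equal levels. Most points lie along the line, and BOP1, IFITM3, KLF2 and JUND lie far from it.

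At an equal depth of 2400 human UMIs per cell, the median Jurkat-like cell showed 1285 and 1290.0 human genes in 5′ v1, 1247, 1274, 1273 and 1264 in 3′ v3 and 1078 in 3′ v2. The 3′ v2 library was lowest, and both 5′ v1 libraries were above all 4 of 3′ v3. The means were 1288 ± 3.54 (SD, n = 2) and 1264 ± 12.5 (SD, n = 4), a difference of -23.0 genes that did not pass a two-sided exact permutation test over libraries (p = 0.133, smallest possible 0.0667). Libraries of 1 mixture share their cells, so that this test and the kit test above compare libraries and not independent cell preparations. Without thinning the medians ran from 3166 in 3′ v2 to 4775 in 5′ v1.

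Variation among Jurkat-like cells was read from the variance of a gene's UMIs over its mean, at 5000 human UMIs per cell, which is 1 where counting alone acts. Cells of a library share its preparation, so that these ratios are a description, repeated in 7 libraries. Where cells differ, the ratio also rises with a gene's mean, so that it favours abundant genes and does not compare spread between libraries. Means per cell ran from 15.6 to 77.2 UMIs for MALAT1 and from 3.29 to 10.2 for SOX4 over the libraries. Over 1906 genes with a mean of at least 0.25 UMIs per cell in every library, the median ratio was 1.06, and 38 genes had a median over 2. MALAT1 was first, at 16.5 in 3′ v2, 6.92 and 9.41 in 5′ v1, 10.2 and 15.5 in mixture F and 37.9 and 49.2 in mixture G. HIST1H4C, a replication-dependent histone, followed at 39.9 in 3′ v2, 4.89 and 4.64 in 5′ v1, 12.2 and 15.2 in mixture F and 11.1 and 16.8 in mixture G. Both were far above 1 in every library. TMSB10 and TMSB4X, which bind actin, FTH1, which stores iron, EEF1A1 and ACTB were next among genes that all cells use, with medians of 6.87, 4.07, 6.45, 3.85 and 3.28.

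Several identity genes were among the 20 most variable. SOX4 was at 4.36 in 3′ v2, 1.90 and 2.08 in 5′ v1, 3.57 and 2.70 in mixture F and 5.10 and 5.61 in mixture G, IGLL1 at 1.95 in 3′ v2, 2.82 and 2.30 in 5′ v1, 2.92 and 3.13 in mixture F and 5.10 and 3.06 in mixture G and CD1E at 1.77 in 3′ v2, 2.09 and 2.16 in 5′ v1, 2.61 and 2.43 in mixture F and 3.04 and 2.60 in mixture G. CHI3L2, a chitinase-like secreted protein, had a median of 4.19 and a range of 1.89 to 5.32, and ID3 a median of 2.45. The mitotic genes TOP2A, CCNB1 and CENPF and the linker histones HIST1H1B and HIST1H1D were at medians of 2.56, 2.46, 2.37, 2.94 and 2.87. GAPDH, HSPA8 and TUBA1B completed the 20. Without the 20% of cells that were highest for G2/M genes, the ratio of CCNB1 was 1.64, of CENPF 1.63 and of TOP2A 1.94, while that of CD1E was 2.38 and of SOX4 3.48. TOP2A and CENPF are members of the list that chose the cells left out.

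**Figure D4:**
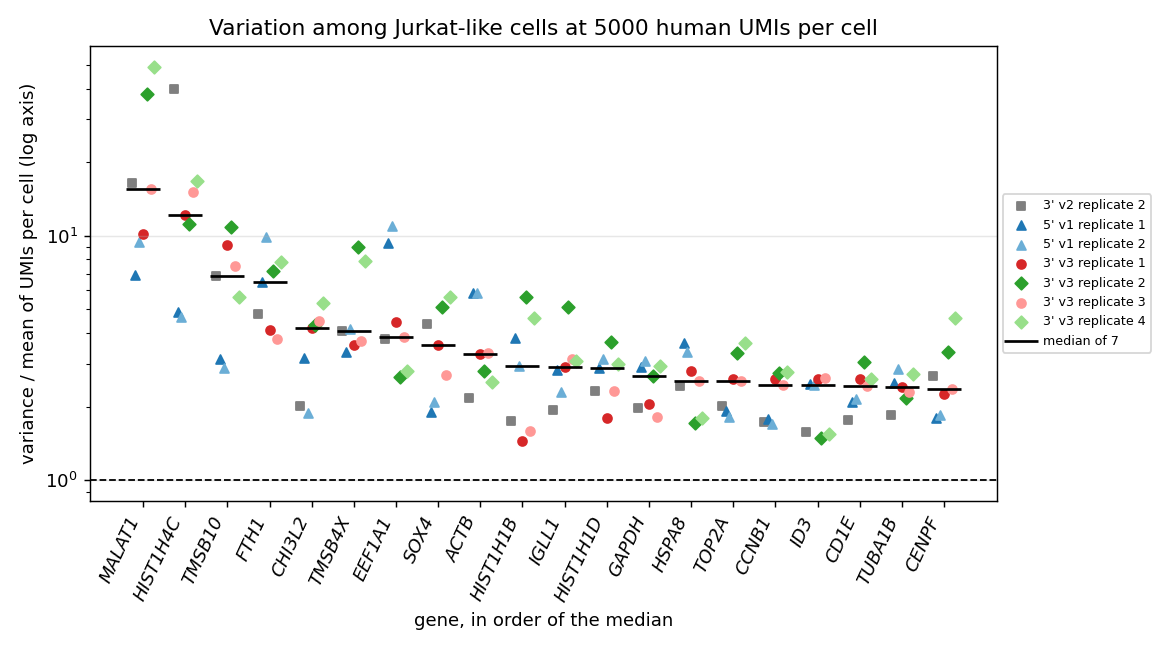
Variance over mean of UMIs per cell in Jurkat-like cells thinned to 5000 human UMIs, on a log axis, for the 20 genes with the highest median over 7 libraries. Symbols are libraries, black bars medians, and the dashed line marks 1, the value of counting alone. All symbols lie above the line, and MALAT1 in mixture G and HIST1H4C in 3′ v2 are highest.

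Sums of lists per cell were also set against each other within each library, over 114 to 2947 cells that share library and depth. Chaperones and ribosome biogenesis moved together, with a median Spearman coefficient of 0.46 (range over the 7 libraries 0.33 to 0.56). Histones went with the G2/M list, at 0.38 (range over the 7 libraries 0.20 to 0.54), and with the S phase list, at 0.29 (range over the 7 libraries 0.18 to 0.48). Nucleotide genes went with the S phase list, at 0.31 (range over the 7 libraries 0.25 to 0.46), with genes of both lists counted in the S phase list alone. Ribosomal protein genes went against the G2/M list, at -0.40 (range over the 7 libraries -0.48 to -0.33), in cells whose UMIs sum to a fixed total. With the immediate early genes, the G2/M list had a median of 0.01 (range over the 7 libraries -0.06 to 0.06).

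To see what else changes with the cell cycle, the 20% of cells highest for 54 G2/M genes were compared with the lower 50% of the same library. Cells were scored on 2400 drawn UMIs, and the test used the UMIs that were not drawn and genes outside the cycle lists. The highest cells held 20 to 31 or more of these UMIs, and the median cell 12 to 16. The score is a range without a gap, and 433 of 7048 cells lay within 1 UMI of the limit. Over 7 libraries, with library as a block, edgeR's quasi-likelihood test at an adjusted p under 0.05 called 18.9% of 10451 genes higher and 21.0% lower in the G2/M-high cells, 1972 and 2191 genes. With library totals in place of TMM scaling, the split was 2685 higher and 1595 lower. G2/M-high cells also held 1.07 to 1.44 times as many human UMIs.

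PLK1, the kinase that drives entry into mitosis, rose from 16.8 to 214 CPM as means of 7 libraries (log2 fold change 3.42 ± 0.06 SE, adjusted p = 2.9e-38), and PIF1, a helicase, from 2.60 to 72.4 (log2 fold change 4.44 ± 0.11 SE, adjusted p = 2.0e-32). KIF20A, ASPM, CCNB1, KIF14, KPNA2 and MXD3 completed the 8 largest rises among genes at 50 CPM or more, with log2 fold changes of 2.20 to 3.25, in 7 of 7 libraries. The 8 largest falls among genes at 50 CPM or more were of FAM111B, MSH6, MCM3, RP11-304L19.5, MCM10, CHAF1A, RFC4 and BATF3, of which MCM3, MCM10, CHAF1A and RFC4 act in DNA replication. MCM3 fell from 212 to 88.7 (log2 fold change -1.30 ± 0.05 SE, adjusted p = 1.3e-26). Among genes at 50 CPM or more in the higher class, 567 rose and 318 fell in all 7 libraries. Of 13 cyclin, kinase and inhibitor genes, 5 rose and 6 fell, where 18.9% of all genes rose and 21.0% fell. The median over these genes was -0.02 and turned to 0.03 with library totals. CCNE1, the cyclin of the step into S phase, fell from 12.4 to 1.53 (log2 fold change -2.84 ± 0.16 SE, adjusted p = 9.1e-20). E2F1, which switches on S phase genes, fell from 46.1 to 12.4, while the inhibitors CDKN2D, CDKN2C and CDKN1B rose by 0.98, 0.80 and 0.55 on the log2 scale.

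Identity genes changed by small amounts. Over all genes tested, 18.9% rose and 21.0% fell, the shares to read beside the list counts below. TAL1, at 60.0 against 64.2 CPM in G2/M-high and low cells, did not pass (log2 fold change -0.06 ± 0.06 SE, adjusted p = 0.392), nor did MYB (log2 fold change 0.09 ± 0.04 SE, adjusted p = 0.0814). Of 22 T-ALL factors, 8 rose and 4 fell, GATA3 and MYC the most. GATA3 (0.40) and LEF1 (0.37) rose, and MYC (-0.35) and TCF7 (-0.34) fell. MYC was lower in 5 and TCF7 in 7 of 7 libraries. LDB1 and RUNX1 also fell, and BCL11B, TCF12, TCF3, TOX, ID1 and SOX4 also rose. NOTCH1 and its targets HES1 and HES4 fell, by 0.40, 0.60 and 0.15 on the log2 scale, and DTX1 and NCSTN rose. In the 5′ v1 libraries alone the change of HES4 turned to 0.0554. Of 31 T cell receptor signalling genes, 16 rose and 0 fell (0 at an unadjusted p under 0.05, 0 in DESeq2), led by the phosphatase PTPN6 (log2 fold change 0.45 ± 0.06 SE, adjusted p = 9.9e-09). LCK did not pass, at 394 against 396, whereas CD3D, CD3G and CD3E rose by 0.11, 0.09 and 0.19 on the log2 scale. Of 27 surface and thymocyte genes, 12 rose, among them FAS, PTPRC, CD5 and all 5 CD1 genes, and 4 fell, namely IL4R, DNTT, CD2 and CD99. MHC genes rose in 6 of 12 cases, with HLA-B at 167 against 105 (log2 fold change 0.46 ± 0.05 SE, adjusted p = 2.1e-10).

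Growth lists divided. Cholesterol synthesis rose in 17 and fell in 1 of 24 genes. HMGCS1, an early enzyme of the pathway, was at 133 against 96.2 (log2 fold change 0.40 ± 0.05 SE, adjusted p = 8.8e-08), and SQLE, a later one, at 188 against 145 (log2 fold change 0.31 ± 0.05 SE, adjusted p = 6.1e-07). Nucleotide synthesis fell in 16 and rose in 1 of 28 genes, and ribosome biogenesis fell in 16 and rose in 3 of 30. With library totals the falls were 10 and 10. NPM1 was at 1300.2 against 1588 (log2 fold change -0.35 ± 0.03 SE, adjusted p = 5.6e-12) and PAICS at 228 against 281 (log2 fold change -0.27 ± 0.04 SE, adjusted p = 1.8e-06). Glycolysis had 6 falls among 21 genes and a median of -0.03, which turned to 0.03 with library totals. The chaperones DNAJB1 and HSPA1B rose, by 1.15 and 1.73 on the log2 scale, within a list of 20 genes with 10 rises and 4 falls. Of the remaining lists, apoptosis and DNA damage genes had no rise in edgeR or DESeq2, also at an unadjusted p under 0.05, and 8 falls among 22. Rises and falls numbered 2 and 6 of 18 immediate early genes, 4 and 5 of 18 interferon genes, 6 and 1 of 18 PI3K genes (the fall was of PDK1), 1 and 2 of 7 cytotoxic genes, and 8 and 3 of 22 histones, where 18.9% of all genes rose and 21.0% fell. Median log2 fold changes were 0.16 for cholesterol synthesis, -0.17 for nucleotide synthesis and -0.01 over all genes tested. No test compared a list with other genes.

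Whether the change with the cycle differed between 3′ v3 and 5′ v1 was tested with an interaction term in edgeR over 6 libraries. It called 0 of 10993 genes at an adjusted p under 0.05 and 604 at an unadjusted p under 0.05, and the smallest adjusted p was 0.134, for IGLL1. No other tool was run for it.

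**Figure D5:**
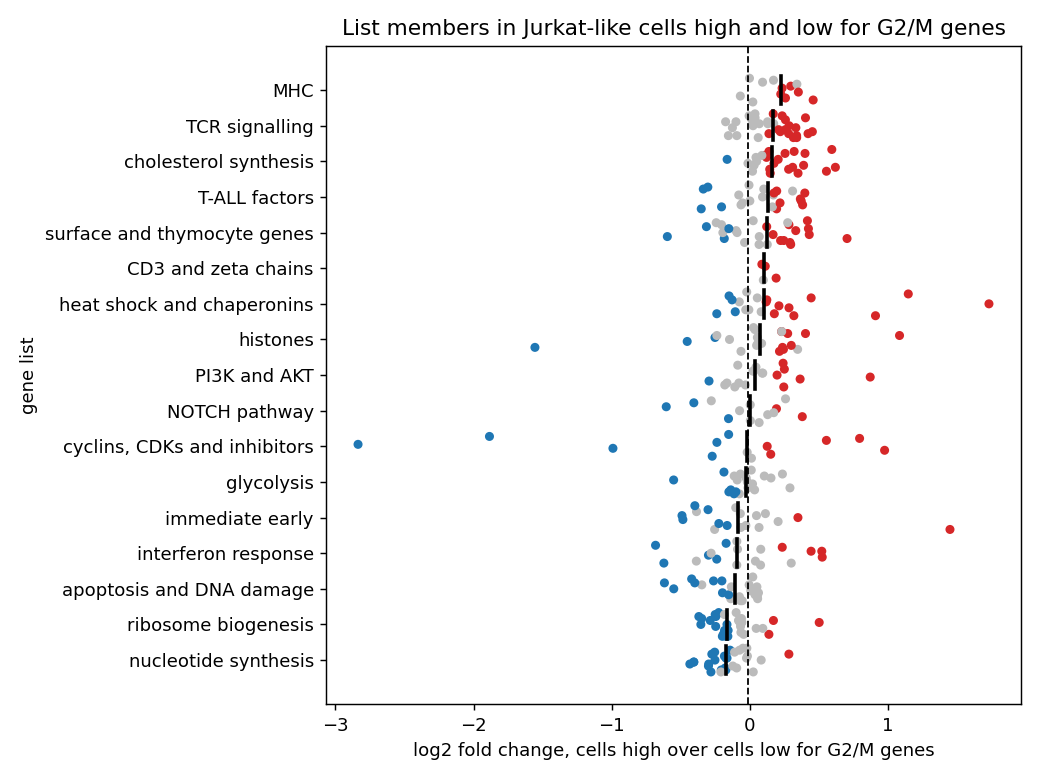
Log2 fold change of list genes between G2/M-high and G2/M-low Jurkat-like cells over 7 libraries. Points are genes, red or blue where the edgeR test called a rise or a fall, grey where it did not, black bars are list medians and the dashed line is the median of all genes tested. Cholesterol, MHC and T cell receptor signalling genes lie mostly to the right, nucleotide and ribosome biogenesis genes to the left, and CCNE1 and E2F1 are the points furthest to the left.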

How the data were processed

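Transcripts were measured in single cells with 3 kits of the Chromium platform (3′ v2, 5′ v1 and 3′ v3). The authors deposited raw counts of UMIs per gene and barcode, which had been aligned to a joint reference of hg19 and mm10 (reference release 1.2.0) with Cell Ranger 3.0.2, as the submitters' processing notes list them, after the reads of each library had been downsampled to level the depth of its RNA-rich cells. Values in 7 libraries were used. No column lacked a sample (0). Symbols carried by several of the 95 rows with a shared symbol were summed, and 32643 human symbols resulted.

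The mitochondrial share was that of both species' MT- genes in all UMIs of a barcode. The human share was the only guard against droplets with cells of both species, and the limit on NKG7, CST7 and CD8A against those with both human lines. Such droplets can still pass. The human share had only to exceed 80%, and TALL-104-like barcodes held few UMIs, with medians of 1970 to 2786 per library. How many passed was not tested. Doublets within Jurkat-like cells were kept and no doublet caller was run. TALL-104-like barcodes had at least 1000 UMIs and at least 0.1% of human UMIs from NKG7, CST7 and CD8A. Counts were summed per library, and levels are UMIs per 1000000 human UMIs (CPM).

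Kits were compared on these sums with the quasi-likelihood test of edgeR 4.0.16 in R 4.3.3 (filterByExpr, TMM, no covariate, Benjamini-Hochberg adjustment over all genes tested), with DESeq2 1.42.0 as an alternative. The study ran no such test per gene. Cell cycle classes were compared in the same way with library as a block, on UMIs not used for scoring. For each list of genes, up to 6 members with the highest mean, all members of the T-ALL, CD3, NOTCH and PI3K lists that were measured, and members past a threshold were named, together with the 8 largest changes in each direction with at least 50 CPM in the higher group and no overlap (kit) or 1 direction in every library (cycle), the 20 most variable genes and the 15 most abundant. Some of these genes are not reported here, and list genes under 1 CPM in both 5′ v1 libraries are not named for the kits. Members, lists and tests were chosen with earlier results of these data known. Other gates, scalings, filters, depths and leaving out each library were tried, and those for levels, mixtures and the interaction with kit were added after seeing the data. Nothing in the labels says that libraries came from separate cultures, so that p-values measure the spread between these libraries, which may be technical. In the kit test this spread also includes the difference between mixtures F and G, which had no term in the model.

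On simulated counts of 13590 genes, the kit test recovered 1.56% of genes changed 2-fold and 70.3% of those changed 4-fold, with 7.84% false calls. On 10334 genes, the cycle test recovered 86.2% of genes changed 1.5-fold, with 5.67% false calls.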

Additional observations from a re-analysis of the deposited data

Results flagged for a closer look

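In 4 of 196 values tested over the 4 libraries of 3′ v3, which were gene levels and a few quality values, 1 library lay far from the other 3, by a gap over the whole range above Dixon's 95% critical value. Chance alone marks about 1 in 20 such groups if the 4 libraries vary alike. They come in pairs from mixtures F and G, so that this rate need not hold. A gene that differs clearly between the mixtures can hardly be flagged. Replicate 1, of mixture F, was the low one for 3 genes. ADAM10, a NOTCH-cleaving protease, was at 40.7 CPM there and at 47.5, 48.0 and 48.3 in replicates 2, 3 and 4 (ratio 0.893). CDK6 was at 804 against 940, 925 and 932 (0.889), and LCK at 396 against 409, 408 and 408 (0.860). HHIP-AS1 was at 133 in replicate 4, of mixture G, against 109, 109 and 108 in replicates 1, 2 and 3 (0.963).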

How the results depend on the processing

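Jurkat-like cells numbered 3714 when no UMI of NKG7, CST7 or CD8A was allowed, and between 6613 and 7707 under the 3 other gates. The count of genes higher in 3′ v3 was 1627 with DESeq2. With each cell thinned to 2400 human UMIs, 388 were higher and 356 lower. With mixture F alone the counts were 4107 and 4075, and with mixture G alone 4041 and 4179. Leaving out 1 library gave 23 to 1339 genes higher and 61 to 1448 lower. Without 5′ v1 replicate 1 the counts were 23 and 61, and without replicate 2 they were 63 and 105, in fits where the lone 5′ v1 library is assumed to vary like those of 3′ v3. Of the 74 genes named for the kits, 8 and 11 then still passed. Without 3′ v3 replicates 1 and 3, 692 and 534 genes were lower. For the cell cycle, 1181 genes rose and 1357 fell when no UMI of those 3 genes was allowed, and 1171 and 1102 in 5′ v1 alone. Leaving out 1 library gave 1257 to 2138 rises, the fewest without 3′ v3 replicate 3, and 1472 to 2183 falls. Among named genes, the log2 change with the cycle turned for IER3 (0.24) and KLF2 (-0.18) with no such UMI, for HIST1H3D (-0.18) and HIST1H3B (-0.16) with the top 10% of cells, and in 5′ v1 alone for HES4 (0.055), KLF2 (-0.10), RRS1 (0.036), PKM (0.024), HIST1H2AM (0.23) and H1F0 (-0.0022). Apart from having fewer samples or cells, the cause of these differences was not tested. The difference in genes per cell stayed negative, from -17.2 to -26.2 when 1 library was left out and from -20.5 to -37.4 at other depths and with mitochondrial shares up to 20%, with p between 0.0667 and 0.467. Of the 20 most variable genes, 16 to 19 were shared under each alternative. The 167 named levels differed under the 4 other gates by less than the spread between libraries. No paired analysis of the kits was possible, because they come from different mixtures. The replicate numbers follow accession order and mark nothing shared between libraries of different kits. Cell cycle classes were compared within each library, with library as a block. Depth limits TALL-104-like levels and the low genes of mixture G, where 1 UMI stood for up to 11.0 and 0.688 CPM.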
